A study of Mus musculus with 12 samples.

Results

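The genes described here encode subunits of the mammalian SWI/SNF complexes other than the ATPases BRM and BRG1, and the remodellers of the ISWI, CHD, INO80 and SWR families with a few related SNF2-family proteins. They were chosen as a list of 42 symbols, matched to the array's annotation with older aliases included. A gene counted as measured when at least 1 of its probes had a detection p under 0.05 on at least 2 of the 12 arrays. Of the 42 genes, 33 met this, out of 10847 genes measured on the array. The 33 genes had 63 tested probes, and 17 of them had more than 1. Each gene was read from its brightest tested probe.

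The samples were C2C12 cells, an immortalized mouse myoblast line that forms myotubes when serum is withdrawn, and total RNA was hybridised to Illumina mouse expression BeadChips. All cells were transfected with siRNA at 100 nM using Dharmafect3 and then kept in differentiation medium, RPMI with the supplements labelled HS and ITS. The siRNA was scrambled (siSCR), against BRM (siBRM, gene Smarca2) or against BRG1 (siBRG1, gene Smarca4), and cells were collected 18 h or 48 h after the change of medium. Each of the 6 groups had 2 arrays, and every group, the controls included, carried an siRNA and the transfection reagent. The sources used here do not say whether the 2 replicates were separate cultures, so p-values measure the spread between these samples, which may be technical. The comparisons address whether the genes of the wider remodelling machinery differ when BRM or BRG1 is lowered, and between the early and the later stage of differentiation.

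Remodellers of the SNF2 family use ATP to slide, eject or exchange nucleosomes. BRM and BRG1 are alternative motors of the SWI/SNF complexes, around which a shared core assembles. The ARID1 and DPF subunits mark canonical BAF, ARID2, PBRM1, PHF10 and BRD7 mark PBAF, and BRD9 marks non-canonical BAF. In skeletal muscle, SWI/SNF is known to be brought by MyoD to muscle promoters, where it opens chromatin for late muscle genes. ISWI complexes space nucleosomes, CHD proteins include the NuRD motors CHD3 and CHD4, and INO80 and SWR complexes act on histone variants and in DNA repair.

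The 12 arrays lay on 3 BeadChips. BeadChip 1 held replicate 1 of the 18 h groups, BeadChip 2 replicate 1 of the 48 h groups, and BeadChip 3 replicate 2 of all 6 groups. The mean raw signal of an array was 513 to 545.9 on BeadChip 1, 664.9 to 794 on BeadChip 2 and 1218 to 1644 on BeadChip 3, and 27.33% to 39.37% of probes were detected. Of 8 myoblast and myotube markers with a probe, 7 were measured, among them Myod1, Myog and Des on all 12 arrays, and Myf5 was detected on 0. Of the markers of other cell types, Pparg and Sox9 were detected on all 12 arrays, while Adipoq, Fabp4, Plin1, Acan, Sp7, Ibsp, Ptprc, Adgre1, Cdh5, Epcam, Snap25 and Gfap were detected on 0 and the other 10 with a probe on 1 to 6. In these bulk samples, fewer cells of a type and less RNA per cell cannot be told apart. Between siBRM and siSCR the log2 difference of Smarca2 was -0.71 and -1.63 in replicates 1 and 2 at 18 h and -0.71 and -0.48 at 48 h. Between siBRG1 and siSCR that of Smarca4 was -1.37 and -1.05 at 18 h and -2.46 and -1.43 at 48 h. None of these differences passed the test in the limma fit (adjusted p = 1 in each). Averaged over the times, Smarca4 was -1.57 with siBRG1 and passed with a random BeadChip term (adjusted p = 0.0435), but not without a block (1) or with the BeadChip as a fixed block (0.12).

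The accounting of the 42 genes differed by family. All 9 core and shared SWI/SNF subunits on the list (Smarcb1, Smarcc1, Smarcc2, Smarce1, Actl6a, Ss18, Bcl7a, Bcl7b and Bcl7c) and all 4 PBAF subunits were measured on all 12 arrays, as was Brd9. Of the canonical BAF subunits, Arid1a and Arid1b were detected on all 12 arrays and Dpf2 on 2, both of them replicate 1 of siBRG1. Dpf1 and Dpf3 were not measured: Dpf1 was detected on 1 array and Dpf3, known for heart and skeletal muscle in zebrafish and mouse, on 0. Of the ISWI group, Smarca5 was detected on 5 arrays, Baz2a on 5 and Bptf on 7, and Smarca1 and Baz1b on 1 each. Among the CHD genes, Chd1, Chd2, Chd3, Chd4, Chd8 and Chd9 were detected on all 12 arrays and Chd6 on 10. Of the INO80 and SWR genes, Ep400, Ruvbl1 and Ruvbl2 were detected on all 12 and Ino80 on 10. Smarcad1 and Smarcal1 were detected on all 12, Hells on 1 and Atrx on 0. No probe here carried the names Baz1a, Chd7 or Srcap, and these 3 genes were not analysed here. In all, 27 of the 33 measured genes were detected on every array. Dpf2, Smarca5, Baz2a, Bptf, Chd6 and Ino80 were not, and the counts, medians and ranks below include their signals below detection, whose differences have no exact size. At 24 to 79 beads per probe (median 43.5), the bead standard error of a member's probe was 2.96% to 10.3% of its signal.

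Levels differed between the replicates in many genes. In 17 of the 33 genes replicate 2 differed from replicate 1 in the same direction in all 6 groups, 10 higher and 7 lower. The same held for 52.3% of all genes. In 21 of the 33 genes the mean shift between replicates was larger than each of the 4 fitted siRNA differences, as in 62.4% of all genes. Bptf, the histone-reading partner of the ISWI ATPases in NURF, was detected on all 6 arrays of BeadChip 3 and on 1 of the other 6, siSCR at 48 h. At 18 h its log2 signals in replicate 2 were 8.66 for siSCR, 8.54 for siBRM and 8.55 for siBRG1, against undetected signals in replicate 1. At 48 h siSCR was 7.05 in replicate 1 and 6.82 in replicate 2, the opposite direction. Smarcb1, a core subunit, was higher in replicate 2 by 1.22 to 1.75 in every group, and Smarcad1, an SNF2-family protein of heterochromatin upkeep and DNA end resection, differed in replicate 2 by -1.498 to -0.843. A fit without a block term carries this shift in its standard errors, which are those given after ± below. A fit with the BeadChip as a block removes it, and its values are given beside the others where named.

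**Figure D1:**
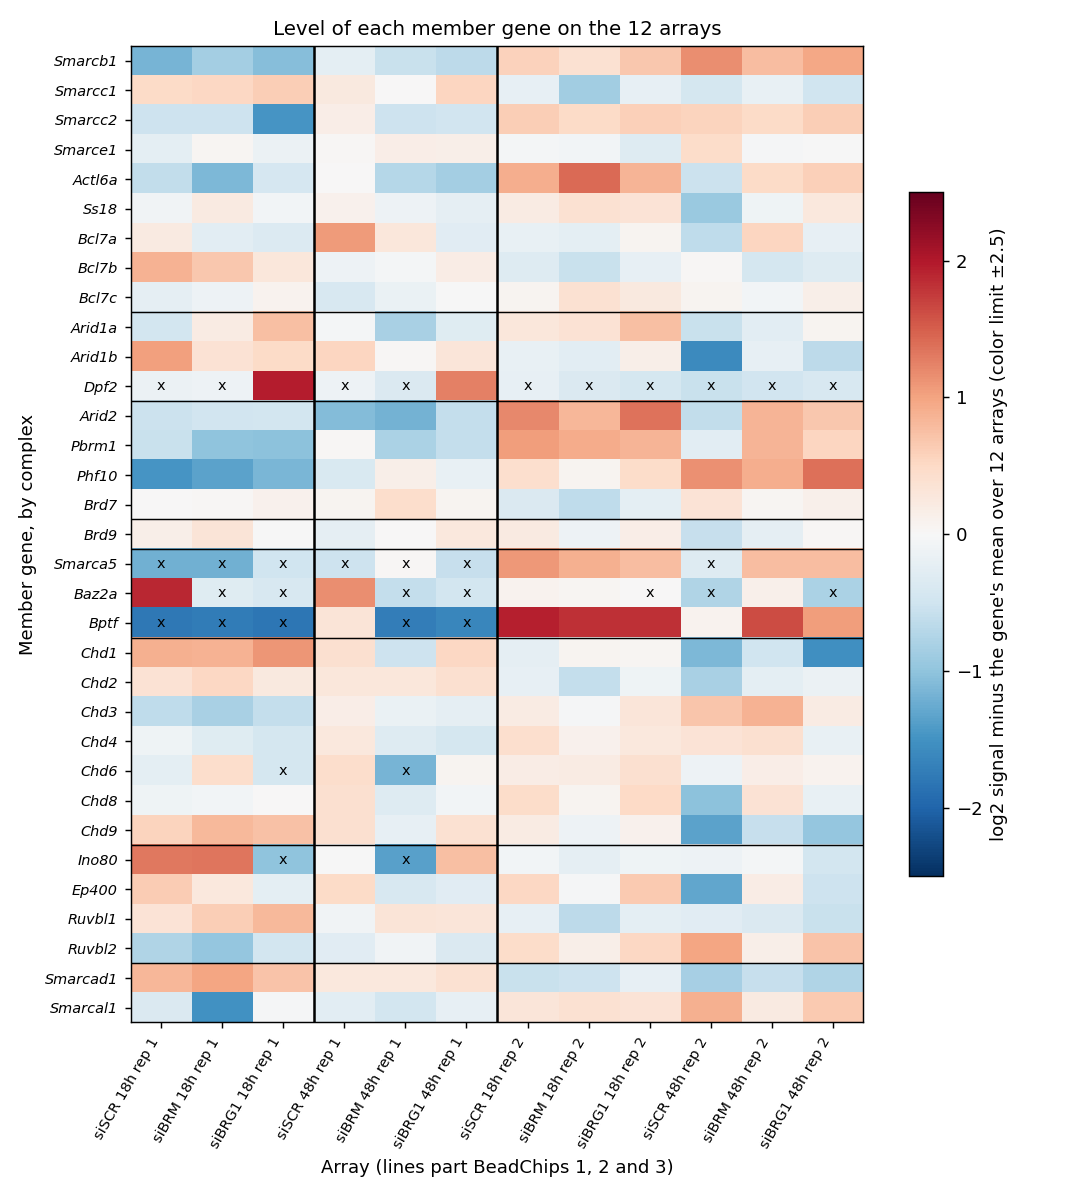
Level of each of the 33 genes (rows, by complex) on the 12 arrays (columns, parted by BeadChip), as log2 signal minus the gene's mean over the arrays, with an x where the probe was not detected. All 6 columns of BeadChip 3 are higher than the other 6 for Smarcb1 and lower for Smarcad1. The siSCR column at 48 h on BeadChip 3 is the lowest of all 12 for several genes, Arid1b, Ep400, Chd8 and Brd9 among them.

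On BeadChip 3, the siSCR array at 48 h stood apart from the other 5. It held the lowest or the highest of the 6 values for 23 of the 33 genes (69.7%), 17 lowest and 6 highest, against 57.6% of all genes. Arid1b, Ep400 and Chd8 had their lowest value of all 12 arrays on it, at log2 signals of 9.93, 9.39 and 9.52. The same held for Ss18, Bcl7a, Brd9, Chd2, Chd9 and Smarcad1, and for Dpf2, which was undetected there. Smarcb1, Smarce1, Ruvbl2 and Smarcal1 had their highest value of all 12 on it. The differences of siBRM and siBRG1 from siSCR at 48 h, and that of siSCR between the times, rest on this array in replicate 2, and both replicates are therefore given for each gene named. Its part in those differences was not tested.

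With siBRM, none of the 33 genes passed the test at either time. At 18 h the limma fit called 0 of 33, as it did with the BeadChip as a block, against 0% of all genes in both fits, and at an unadjusted p under 0.05 it held 0 of 33 without and with the block, against 0.313% and 2.58% of all genes. At 48 h the counts were again 0 of 33 in both fits, against 0% of all genes, and the unadjusted counts 0 of 33, against 0.157% and 2.24%. The median log2 difference over the 33 genes was -0.10 at 18 h and 0.04 at 48 h, and over all genes -0.01 and 0.03. At 48 h the median over the 33 genes was -0.31 in replicate 1 and 0.28 in replicate 2. At 18 h, 5 genes were higher and 10 lower in both replicates, against 24% and 26.4% of all genes. At 48 h only 3 were higher and 3 lower in both, against 21% and 16.5%. A difference of over 0.5 in both replicates was found for 0 of 33 genes in either direction at 18 h, against 1.07% higher and 0.848% lower of all genes. At 48 h it was found for 1 higher, against 1.07%, and for 0 lower, against 1.24%. The 1 gene was Smarca5, undetected on 3 of these 4 arrays.

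Among the SWI/SNF subunits, Smarcc2, a scaffold subunit of the core, was the only one of the 33 genes lower with siBRM in all 4 pairs of arrays, against 4.7% of all genes, and 0 were higher in all 4, against 5.08%. Its log2 differences were -0.01 and -0.14 at 18 h and -0.69 and -0.07 at 48 h, so 3 of the 4 lay within 0.14 of 0. Smarcc1, the paralogous scaffold, differed by 0.04 and -0.67 at 18 h, and Smarcb1 by -0.31 and -0.39 at 48 h. Arid1a, a DNA-binding subunit of canonical BAF, differed by 0.65 and 0.08 at 18 h. Brd9, the bromodomain subunit of non-canonical BAF, was higher at 48 h by 0.23 and 0.36 (0.30 ± 0.39). Arid2, the PBAF subunit that stands in the place of ARID1, differed by -0.08 and 1.47 at 48 h, and the replicates disagreed in direction.

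Of the other remodellers, Smarca5, the ISWI ATPase SNF2H, was detected at 48 h with siBRM in replicate 2 only, at 7.08, and on neither siSCR array, so no fold is given. Baz2a, a partner of SNF2H in silencing ribosomal DNA, had siSCR signals of 8.02 and 6.21 at 18 h. With siBRM it was not detected in replicate 1 and was 6.18 in replicate 2. Ep400, the motor of the TIP60 complex, was lower at 18 h by 0.37 and 0.55 (-0.46 ± 0.60). Smarcal1, a DNA-annealing helicase at stalled replication forks, differed by -1.15 and 0.08 at 18 h. At 48 h Chd6 and Ino80, the motor of its complex, were detected with siSCR in both replicates but with siBRM in replicate 2 only. In that replicate they differed by 0.28 and 0.08.

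With siBRG1, none of the 33 genes passed the test either. At 18 h both limma fits, without a block and blocked by BeadChip, called 0 of 33, against 0% of all genes, and an unadjusted p under 0.05 was reached by 0 and 1 of 33, against 1.18% and 6.06%. At 48 h they again called 0 of 33 in both fits, against 0%, and the unadjusted counts were 0 and 2, against 2.01% and 10.6%. A random BeadChip term called 11 genes of the array (0.101%) and 0 of the 33 at 48 h. The median log2 difference over the 33 genes was 0.07 at 18 h and 0.08 at 48 h, and over all genes -0.0011 and 0.04. At 18 h, 13 genes were higher and 7 lower in both replicates, against 29.8% and 29.7% of all genes. At 48 h it was 7 and 6, against 30% and 24.1%.

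In the SWI/SNF complexes, Arid1a was the gene with the smallest p at 18 h. Its log2 signals in replicates 1 and 2 were 7.24 and 7.98 with siSCR, 7.90 and 8.05 with siBRM, and 8.44 and 8.46 with siBRG1. Within both replicates siBRG1 was above siSCR, as for 29.8% of all genes, and above siBRM, as for 28.4%. The difference from siSCR was 0.84 ± 0.44 (adjusted p = 1), and with the block its unadjusted p was 0.0349 and its adjusted p 0.818. At 48 h the replicates disagreed, at -0.25 and 0.63.

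Arid2 and Brd9 were higher with siBRG1 than with siSCR at 48 h in both replicates, as were 30% of all genes. Arid2 had log2 signals of 8.05 and 8.53 with siSCR, 7.97 and 9.9999 with siBRM, and 8.56 and 9.81 with siBRG1. In replicate 2 its siBRM value was higher than that of siBRG1. The difference of siBRG1 from siSCR was 0.50 and 1.28 (0.89 ± 0.93, adjusted p = 1), with a blocked p of 0.0428 before and 0.492 after adjustment. Brd9 had 11.01 and 10.64 with siSCR, 11.24 and 11.002 with siBRM, and 11.48 and 11.25 with siBRG1. Its difference was 0.47 and 0.60 (0.54 ± 0.39, adjusted p = 1). The other tested probe of Brd9 differed by 0.45 and -0.17, and the 2 probes thus disagreed in replicate 2. In this comparison Arid2 was the only one of the 33 genes higher by over 0.5 in both replicates, a size reached by 4.66% of all genes, and Chd4 the only one lower by over 0.5, against 5.15%. At 18 h it was 0 and 0 of 33, against 1.89% and 3.27%.

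Chd4, the main motor of the NuRD deacetylase complex, was lower with siBRG1 in both replicates at both times on the probe read. Its log2 signals at 48 h were 11.44 and 11.53 with siSCR, 10.87 and 11.57 with siBRM, and 10.74 and 10.995 with siBRG1. Within the replicates siBRG1 was below siSCR by 0.70 and 0.53 (-0.62 ± 0.45, adjusted p = 1). With the block the unadjusted p was 0.0421 and the adjusted p 0.489. The 3 other probes of Chd4, detected on 6, 8 and 12 arrays, were also lower in both replicates, by 0.45, 0.63 and 0.50 on average, and had blocked adjusted p-values of 0.656, 0.492 and 0.712. Of the 17 genes with several probes, Chd4 and Brd7 had all of them lower in both replicates in this comparison, as did 9.67% of the 4219 such genes on the array. At 18 h the probe read of Chd4 was lower by 0.34 and 0.15, but its probes were not all lower in both replicates. Chd3, the other NuRD motor, was lower with siBRG1 at 48 h by 0.39 and 0.49 (-0.44 ± 0.57), and at 18 h it differed by 0.05 and 0.10. Of the 8 measured NuRD partner genes (11 listed), 0 passed the test at 48 h, against 0% of all genes. In both replicates 2 were higher at 48 h, against 30% of all genes, and 1 was lower, against 24.1%.

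Baz2a, Ino80 and Dpf2 were each below detection on some of the arrays compared with siBRG1. At 18 h Baz2a was detected on both siSCR arrays, at 8.02 and 6.21, and on neither siBRG1 array. The lowest detected log2 signals on those siBRG1 arrays were 7.36 and 6.14, so replicate 2 of siSCR lay near that limit. On the mean of the replicates, Baz2a was at least 1.288-fold lower with siBRG1. At 48 h it was detected only with siSCR in replicate 1, and no fold is given. Ino80 was 8.48 and 7.08 with siSCR at 18 h, and with siBRG1 it was not detected in replicate 1 and was 7.05 in replicate 2. At 48 h, where all 4 arrays detected it, it differed by 0.77 and -0.33. Dpf2, a PHD-finger subunit of BAF, was detected only in replicate 1 of siBRG1, at 7.55 at 18 h and 6.86 at 48 h. It was measured only through these 2 arrays, and no fold is given.

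Over both times, 3 of the 33 genes were higher with siBRG1 in all 4 pairs of arrays (Bcl7c, Arid2 and Phf10), against 12% of all genes, and 2 were lower (Baz2a and Chd4), against 10.2%. For Baz2a these pairs include undetected signals, in 1 of them on both sides. Bcl7c, a small subunit shared by SWI/SNF complexes, was higher by 0.30 and 0.17 at 18 h and by 0.39 and 0.08 at 48 h. Its 2 other probes differed by -0.17 and -0.11 on average at 48 h, opposite to the probe read. Phf10 was higher by 0.33 and 0.04 at 18 h and by 0.20 and 0.23 at 48 h, and its other probe by 0.56 on average at 48 h. When the differences of the 2 times were averaged, 0 of 33 genes were called with or without the block, against 0%, while a random BeadChip term called 51 genes of the array (0.47%) and 0 of the 33. The averaged difference of Chd4 on the probe read was -0.43 ± 0.32, with a blocked p of 0.0442 before and 0.475 after adjustment, and that of Arid1a 0.52 ± 0.31 (blocked adjusted p = 0.505). Chd4 was the 1 member with an unadjusted blocked p under 0.05 there, against 11.4% of all genes.

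**Figure D2:**
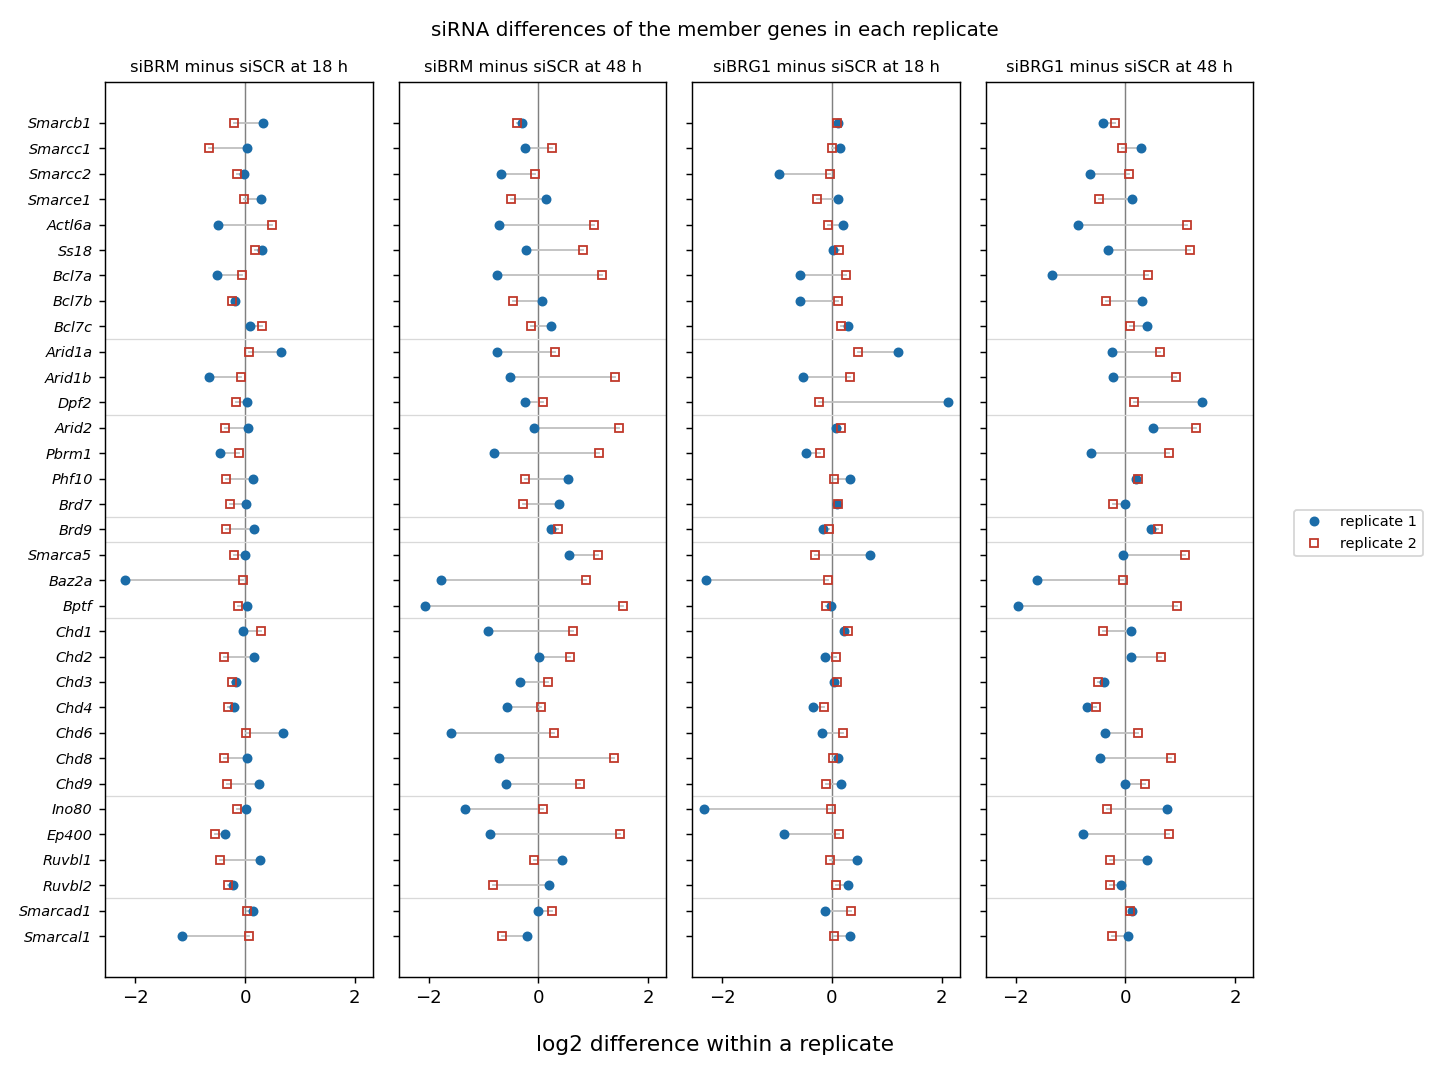
Log2 difference of siBRM and siBRG1 from siSCR at 18 h and 48 h (1 panel each) for each of the 33 genes, with replicate 1 as filled circles and replicate 2 as open squares joined by a line. The lines of many genes cross 0, most of all for siBRM at 48 h, while Chd4 (-0.70 and -0.53) and Arid2 (0.50 and 1.28) with siBRG1 at 48 h lie on one side of it. Undetected signals are plotted at their values in Dpf2, Smarca5, Baz2a, Bptf, Chd6 and Ino80.

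Set directly against each other, siBRG1 and siBRM gave 0 called genes among the 33 at both times in the limma fits without and with the BeadChip term, against 0% of all genes. An unadjusted p under 0.05 was reached by 0 of 33 in all 4 of these tests, against 1.36% and 6.79% of all genes at 18 h and 1.89% and 8.09% at 48 h. At 18 h, 10 of the 33 genes were higher with siBRG1 than with siBRM in both replicates and 4 lower, against 28.4% and 26.3% of all genes. At 48 h it was 8 and 4, against 31% and 28.7%. By over 0.5 in both replicates it was 0 and 0 at 18 h, against 2.28% and 4.07%, and 0 higher and 1 lower (Bcl7a) at 48 h, against 4.42% and 5.14%. Arid1a was higher with siBRG1 at 18 h by 0.55 and 0.40 (0.48 ± 0.44, adjusted p = 1), and Ruvbl2, an AAA-family ATPase shared by INO80, SWR and TIP60 complexes, by 0.51 and 0.39 (0.45 ± 0.69). At 48 h Bcl7a was lower by 0.58 and 0.74 (-0.66 ± 0.55), Chd4 by 0.13 and 0.58 and Chd3 by 0.04 and 0.66. The median unadjusted 95% interval of a blocked siRNA difference reached 0.81 to either side. For a typical member, smaller differences between the siRNAs were thus not told apart from 0 even before adjustment. A call at an adjusted p under 0.05 needed a larger one. The siRNA effects at 48 h and at 18 h were also compared by an interaction term. It called 0 of 33 genes for siBRM and 0 for siBRG1, without and with the block, against 0% of all genes, and 0 of 33 reached an unadjusted p under 0.05, against 0.203% and 2.34% (siBRM) and 0.562% and 4.4% (siBRG1). For Brd9 the siBRG1 difference was larger at 48 h by 0.65 ± 0.55, and for Arid1a it was smaller by 0.65 ± 0.62.

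Between 18 h and 48 h more genes of the array passed the test, but none of the 33 did within an siRNA group. In replicate 1 the 18 h arrays lay on BeadChip 1 and the 48 h arrays on BeadChip 2. Time and BeadChip therefore cannot be told apart in replicate 1, here and in the pairs of arrays below. In the fit without a block the calls were 0 of 33 in siSCR, siBRM and siBRG1, against 0.323%, 0.461% and 0.101% of all genes. With the BeadChip as a block they were again 0 of 33, against 1.65%, 1.5% and 0.479%. At an unadjusted p under 0.05 the blocked fit held 4, 5 and 2 of the 33 genes, against 17.2%, 14.6% and 11% of all genes, and the fit without a block held 0 in each, against 5.39%, 4.76% and 3.36%. The median difference over the 33 genes was -0.26 in siSCR, -0.09 in siBRM and -0.11 in siBRG1, and over all genes -0.06, -0.02 and -0.02. In siSCR that median was 0.11 in replicate 1 and -0.37 in replicate 2, the replicate whose 48 h array stood apart. In both replicates, 7 genes were higher and 13 lower at 48 h in siSCR, against 25.3% and 31.9% of all genes, 8 and 9 in siBRM, against 29.1% and 31.7%, and 5 and 16 in siBRG1, against 31% and 33.9%. By over 0.5 in both replicates, Smarcb1 and Phf10 were higher in siSCR (against 8.29% of all genes) and Arid2 and Baz2a lower (9.28%), Baz2a with an undetected signal at 48 h in replicate 2. In siBRM Bcl7a, Phf10 and Chd3 were higher (7.85%) and Arid1a and Chd1 lower (8.38%), and in siBRG1 Phf10 was higher (7.98%) and Arid1a and Chd1 lower (7.29%).

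The siRNA groups were then averaged, a comparison added after the data were seen. Without a block it called 0 of 33 genes, against 2.03% of all genes, and 0 of 33 once blocked by BeadChip, against 4.53%. With the replicate number as a block, which keeps both replicates in the comparison, 2 of the 33 passed, Phf10 and Chd1, against 13.7% of all genes. This block does not part time from BeadChip in replicate 1. Under the BeadChip block the averaged difference rests on BeadChip 3 alone, because each of the other BeadChips holds 1 time. In all 6 pairs of arrays, 4 genes were higher at 48 h (Smarcb1, Smarce1, Phf10 and Ruvbl2), against 10.7% of all genes, and 4 were lower (Bcl7c, Chd1, Chd9 and Smarcad1), against 12.7%.

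Phf10, the PHD-finger subunit that marks PBAF and is known from neural progenitors, had the highest averaged difference of the 33 in the fit without a block. Its log2 signals at 18 h were 10.92 and 12.81 with siSCR, 11.06 and 12.46 with siBRM and 11.25 and 12.85 with siBRG1. At 48 h they were 12.01 and 13.55, 12.55 and 13.30, and 12.21 and 13.78. Within each replicate all 3 values at 48 h lay above all 3 at 18 h, whereas over both replicates the times overlapped. The differences were 1.10 and 0.73 in siSCR, 1.49 and 0.84 in siBRM and 0.97 and 0.93 in siBRG1. Averaged, Phf10 was higher by 1.01 ± 0.53 (limma adjusted p = 0.578), and with the replicate block it rose by the same amount with an adjusted p of 0.00783. On BeadChip 3 alone, through the BeadChip block, it was 0.83 ± 0.24 with an adjusted p of 0.102. With the same block, it passed under median scaling, without background correction and in the authors' normalized values (adjusted p = 0.0381, 0.0204 and 0.0206), as did 1553, 1185 and 1182 of all 10847 genes. Its other probe, also detected on all 12 arrays, was higher by 1.08 (blocked adjusted p = 0.0546) and was higher in both replicates of all 3 siRNA groups. In siSCR, all probes of a gene were higher in both replicates for Phf10, Smarce1 and Brd7 of the 17 genes with several, against 11.8% of such genes on the array.

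The other PBAF subunits did not follow Phf10 as a group. Brd7, a bromodomain subunit, differed by 0.06 and 0.71 in siSCR, by 0.40 and 0.70 in siBRM and by -0.03 and 0.38 in siBRG1, 0.37 ± 0.24 on average (adjusted p = 0.698, blocked 0.175). Its other probe was higher by 0.84 on average. Arid2 was lower in siSCR by 0.56 and 1.81 (-1.18 ± 0.93), and differed by -0.70 and 0.03 in siBRM and by -0.13 and -0.70 in siBRG1. Pbrm1, the polybromo subunit, differed by 0.58 and -1.31 in siSCR. The plot of differences between the times shows Phf10 right of 0 and Arid2 mostly left of it.

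Of the core subunits, Smarcb1 was higher at 48 h by 0.92 and 0.58 in siSCR, 0.29 and 0.39 in siBRM and 0.40 and 0.30 in siBRG1 (0.48 ± 0.54 averaged, adjusted p = 0.891, and 0.069 with the replicate block). Smarce1, the HMG-box subunit, was higher by 0.28 and 0.52 in siSCR, 0.12 and 0.04 in siBRM and 0.30 and 0.31 in siBRG1, and its other probe by 0.22 on average. Actl6a, an actin-related subunit typical of proliferating progenitors, differed by 0.64 and -1.45 in siSCR, 0.41 and -0.94 in siBRM and -0.43 and -0.27 in siBRG1. Replicate 2 was thus lower in each group and replicate 1 only in siBRG1. In canonical BAF, Arid1a was lower in 5 of 6 pairs. Its differences were 0.40 and -0.84 in siSCR, -1.01 and -0.63 in siBRM and -1.04 and -0.69 in siBRG1. Averaged, it was -0.63 ± 0.25, the one member with an unadjusted p under 0.05 in the fit without a block (0.0326, adjusted 0.388), against 11.7% of all genes, and its adjusted p was 0.195 with the BeadChip block and 0.0606 with the replicate block. Arid1b was lower in siSCR by 0.48 and 1.41, and its other probe differed by 0.10 on average over the siRNAs. Brd9 was lower in siSCR by 0.37 and 0.81 (-0.59 ± 0.39).

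**Figure D3:**
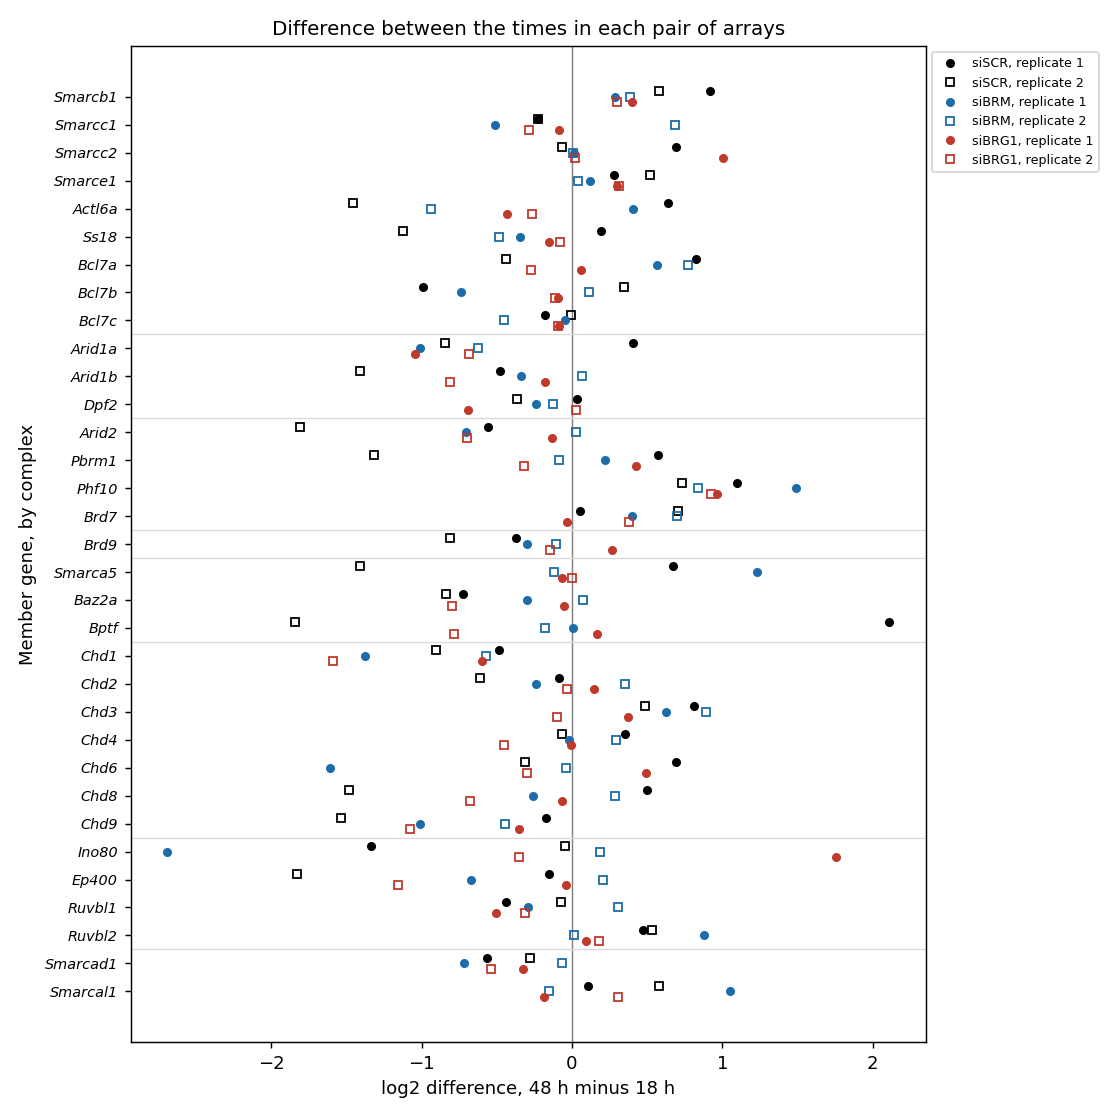
Log2 difference of 48 h from 18 h for each of the 33 genes in the 6 pairs of arrays, by siRNA (colour) and replicate (filled or open). Phf10 lies above 0 in all 6 pairs, from 0.73 to 1.49, and Chd1 below 0 in all 6, from -1.59 to -0.49, while replicate 2 of siSCR is the leftmost point for genes such as Arid2, Arid1b, Chd8, Chd9 and Ep400.

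Among the other remodellers, Chd1, which binds the methylated histone tail of active promoters, had the lowest averaged difference of the 33 in the fit without a block. Its log2 signals at 18 h were 9.50 and 8.38 with siSCR, 9.47 and 8.67 with siBRM and 9.71 and 8.66 with siBRG1. At 48 h they were 9.01 and 7.47, 8.09 and 8.10, and 9.12 and 7.07. All 6 pairs were lower at 48 h, by 0.49 and 0.91 in siSCR, 1.38 and 0.57 in siBRM and 0.60 and 1.59 in siBRG1. Averaged, Chd1 was -0.92 ± 0.46 (limma adjusted p = 0.55), and with the replicate block it fell by the same 0.92 with an adjusted p of 0.0453. With the BeadChip block it was -1.02 ± 0.37 with an adjusted p of 0.178. Its 3 other probes were lower as well, by 0.49, 0.91 and 0.34 on average. In siBRG1 all probes were lower in both replicates for Chd1 and Ss18 of the 17 genes, against 13.9% of such genes.

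Chd9, a CHD protein of mesenchymal cells, was lower in all 6 pairs, by 0.17 and 1.54 in siSCR, 1.01 and 0.45 in siBRM and 0.35 and 1.08 in siBRG1. Averaged it was -0.77 ± 0.39 (adjusted p = 0.567), -1.02 ± 0.28 with the BeadChip block (0.0988), and 0.0502 was its adjusted p with the replicate block. Under the same 3 alternatives its blocked adjusted p was 0.0302, 0.0441 and 0.0444, where 1553, 1185 and 1182 of all 10847 genes passed. Its 3 other probes disagreed, at -0.85, 0.07 and 0.18. Chd3 was higher in siSCR by 0.81 and 0.49 and in siBRM by 0.63 and 0.89, and differed by 0.38 and -0.10 in siBRG1. Chd4 differed little on average (0.02 ± 0.26). Ep400 was lower in siSCR by 0.16 and 1.83 (-0.99 ± 0.60), and Ruvbl2 was higher in all 6 pairs, from 0.01 to 0.88. Smarcad1 was lower in all 6 pairs, from -0.72 to -0.07. Ino80 differed by 0.18 in siBRM and by -0.35 in siBRG1 in replicate 2, and replicate 1 had an undetected signal in each.

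**Figure D4:**
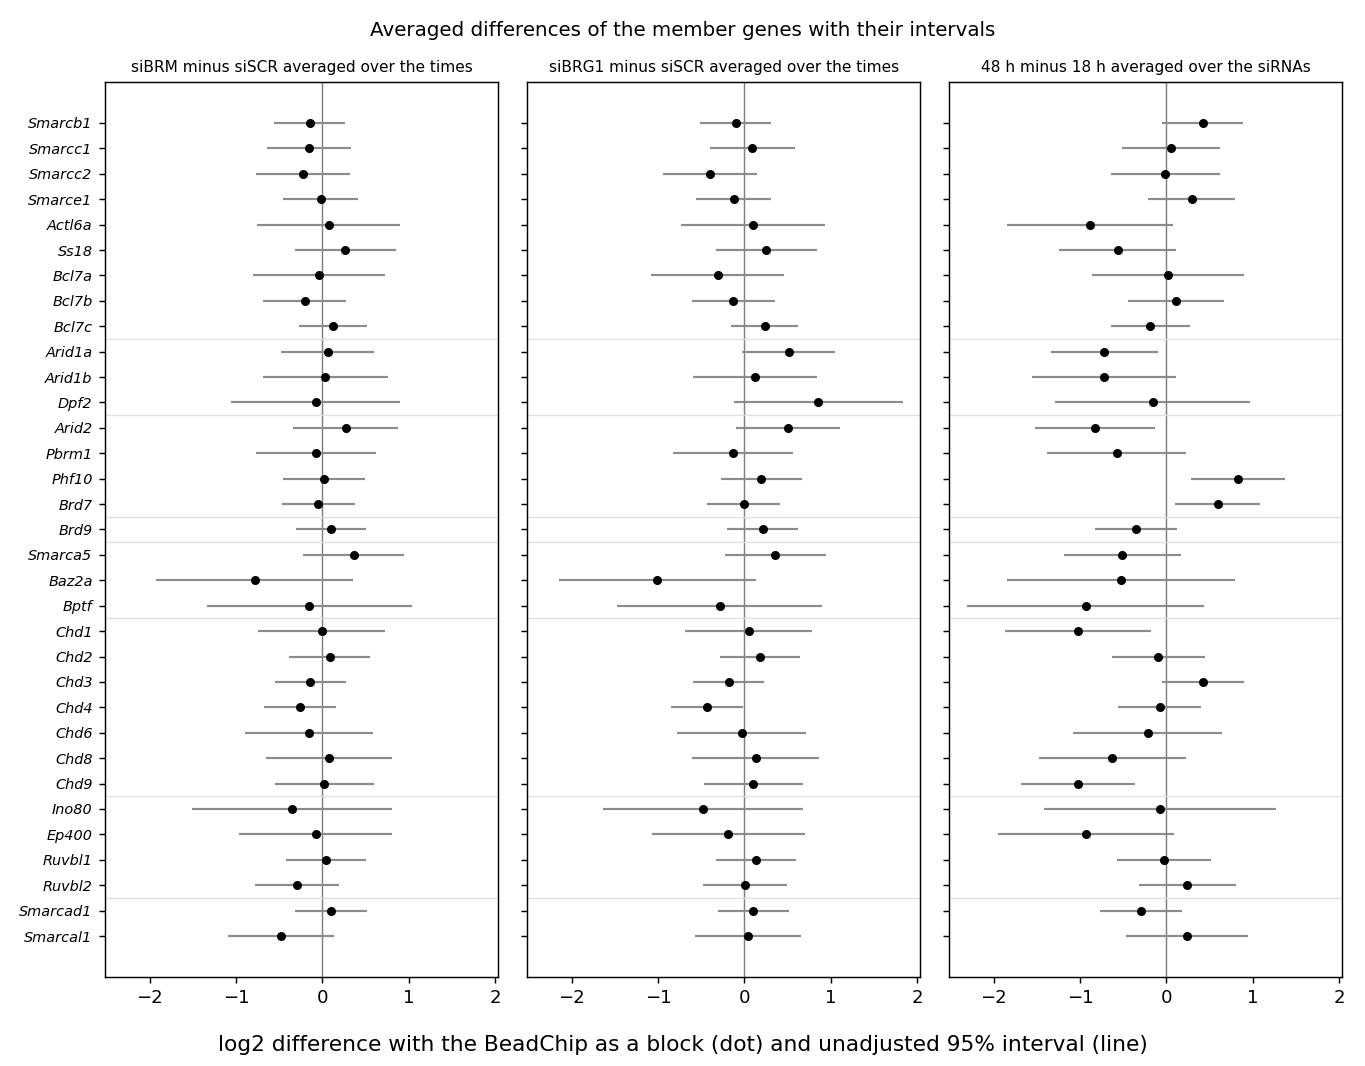
Averaged log2 differences of the 33 genes in the fit with the BeadChip as a block (dot) with unadjusted 95% intervals (line), for siBRM and siBRG1 against siSCR over both times and for 48 h against 18 h over the siRNAs. The siBRM intervals all span 0, and the siBRG1 interval of Chd4 ends below it. In the time comparison 6 of the 33 intervals, those of Arid1a, Arid2, Phf10, Brd7, Chd1 and Chd9, leave 0 out. An unadjusted blocked p under 0.05 was reached there by 22.1% of all genes.

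Partner genes of the same complexes that were not on the list were examined in the same fits. Of 62 such genes 50 were measured, and the limma fit without a block and the one with the BeadChip as a block called 0 of them in the 6 siRNA comparisons. Their median differences there ran from -0.08 to 0.15. Between the times averaged over the siRNAs, 0 of 50 passed without a block, against 2.03% of all genes, 0 rose and 2 fell with the BeadChip block, against 4.53% in both directions, and 3 rose and 3 fell with the replicate block, against 13.7%. The pair that fell with the BeadChip block was Rad54l, a homologous recombination motor (-1.79 ± 0.25, adjusted p = 0.0095), and Chd1l, a motor recruited by poly(ADP-ribose) (-0.97 ± 0.20, adjusted p = 0.0469). Smarcd3, the BAF60c subunit that works with MyoD in muscle, was higher by 1.43 and 1.19 in siSCR. Averaged it was 1.14 ± 0.72, and it rose with the replicate block (adjusted p = 0.00743) but did not pass with the BeadChip block (0.0976). Tfpt of the INO80 complex and Morf4l1 of the TIP60 complex rose with the replicate block only (adjusted p = 0.0257 and 0.0369). Rad54l, Rad54b and Shprh fell with it, of which Rad54b and Shprh are named after their values were seen.

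Genes of the cell cycle were listed beside Hells, which is known to follow DNA replication. Their median difference was -0.85 in siSCR, with 9 of 11 measured genes lower in both replicates, against 31.9% of all genes. Averaged over the siRNAs 0 of 11 rose and 2 fell with the BeadChip block, against 4.53% of all genes in both directions. They were Mcm5 (-1.46 ± 0.24, adjusted p = 0.0185) and Mcm6 (-1.08 ± 0.22, adjusted p = 0.0408). The 7 measured myoblast and myotube markers were higher at 48 h in both replicates of all groups, with a median of 2.67 in siSCR, 2.86 in siBRM and 2.74 in siBRG1, against 25.3%, 29.1% and 31% of all genes higher in both. With siBRG1 they were lower than with siSCR at 48 h in both replicates in 7 of 7, against 24.1% of all genes, with a median of -0.97, and 0 passed the test. These shifts accompany the values of the 33 genes in the same samples, and their part in them was not tested.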

How the data were processed

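Total RNA of 12 C2C12 samples, 2 in each of 6 groups, was measured on Illumina mouse BeadChips. The deposited file holds bead-averaged signal intensities with no normalization seen in the values, detection p-values of each probe against the negative controls of its array, bead numbers and bead standard errors, per the file headers. GenomeStudio 2009.1 is named in the submitters' processing notes, and a separate table holds the authors' normalized intensities, whose method is not given in the sources used here. Intensities were background-corrected by normexp, with the negative controls inferred from the deposited detection p-values and an offset of 16, quantile normalized and taken to log2 (limma 3.58.1, R 4.3.3). Of 45281 probes, 34885 had 1 gene symbol in the platform annotation, 18 several and 10378 none. Probes detected on at least 2 arrays at p under 0.05 were tested, 20415 in all, and Benjamini-Hochberg adjustment ran over all of them. The number of arrays limits the precision.

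Group means were fitted by limma with no block. Replicate numbers paired the samples: deviations of same-numbered samples correlated at 0.449 to 0.825 over 15 pairs of groups. Fits with the BeadChip or the replicate number as a block (statmod 1.5.0 for the random term) were therefore added. A gene counted as called at an adjusted p under 0.05. The members, lists and comparisons were chosen with earlier results of these data known, and the 3 averaged comparisons were added after the data were seen. Values are given for the 4 members with the smallest p in each of 2 fits per comparison, and for up to 2 genes of each other list. Other alternatives were another scaling, no background correction, the authors' values, other filters, the mean of a gene's probes and leaving out each array. Figures were drawn with matplotlib 3.10.9.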

Additional observations from a re-analysis of the deposited data

How the results depend on the processing

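Precision was limited by 2 arrays per group and by the BeadChip, whose block lowered the median residual variance from 0.4407 to 0.1097. The pairing mattered most for the whole array. In siSCR, siBRM, siBRG1 and the averaged comparison between the times, the fit without a block called 35, 50, 11 and 220 genes, the BeadChip block 179, 163, 52 and 491, the replicate number as a block 287, 271, 94 and 1488, and the BeadChip as a random term 300, 271, 119 and 772. For the 33 genes, the count called was 0 in 164 of 168 results under alternatives that keep all arrays. The exceptions were all in the averaged time comparison. With the replicate number as a block 2 passed (Phf10 and Chd1), against 1488 of all 10847 genes. With the BeadChip block 2 (Phf10 and Chd9) passed under median scaling, without background correction and in the authors' values, against 1553, 1185 and 1182 of 10847. The last 2 alternatives gave the same differences (0.81 and -0.68) and are not independent. The block changed no other call among the 33 genes. Leaving out 1 array kept the count at 0 in 157 of 160. Each such fit leaves 1 array in a group. In the exceptions, many genes across the whole array passed as well, so they are not read as specific to the 33 genes. The count ranged from 0 to 3 for the times in siSCR, where Arid2, Pbrm1 and Bptf passed with the block without siSCR 48 h replicate 1, and from 0 to 2 for the averaged times, where Bptf passed without that array and Chd1 and Chd9 without siBRM 48 h replicate 2.

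None of the log2 differences of single genes turned in direction while all arrays were kept (875 values). Many of these values could not turn, because the alternative leaves the difference itself unchanged. The replicate block does so in every comparison, and the BeadChip block for siRNA differences within a time. Other detection filters do so where the same probe is read. The 875 values are thus no measure of stability. Of 832 values with 1 array left out, 47 turned. The cause of these turns was not tested. Ranges of Dpf2, Smarca5, Baz2a, Chd6 and Ino80 include undetected signals. The ranges over arrays left out, without and with the BeadChip block, were as follows, and where both fits gave a turn a range of the other fit is added at the end. For siBRM at 18 h they were -0.0031 to 0.73 for Arid1a, -1.01 to 0.38 for Smarcc1 and -1.48 to 0.41 for Smarcal1. For siBRM at 48 h they were -1.05 to 0.35 for Smarcb1, -1.45 to 0.13 for Chd6, -1.62 to 0.36 for Ino80 and -0.32 to 1.71 for Arid2. For siBRG1 they were -0.26 to 2.13 for Dpf2 and -2.37 to 0.015 for Ino80 at 18 h, and -1.89 to 0.23 for Baz2a and -0.065 to 1.61 for Dpf2 at 48 h. For siBRG1 against siBRM at 18 h they were -0.22 to 1.67 for Smarcal1, -0.11 to 1.003 for Ruvbl2, -0.19 to 2.20 for Dpf2 and -2.30 to 0.083 for Ino80. At 48 h they were -0.21 to 1.38 for Chd6, -0.87 to 0.17 for Chd3, -0.71 to 0.0004 for Chd4 and -0.14 to 1.84 for Ino80. For the times in siSCR they were -0.13 to 1.62 for Smarcb1, -2.01 to 0.12 for Arid1b and -1.72 to 0.0074 for Chd9. For siBRM averaged over the times they were -0.21 to 0.93 for Smarca5 and -0.054 to 0.59 for Ss18. For the siBRM interaction they were -0.22 to 2.06 for Smarca5, -0.17 to 1.86 for Arid2, -0.22 to 1.74 for Ep400 and -0.26 to 1.88 for Arid1b, and for the siBRG1 interaction -0.14 to 1.68 for Arid2. The ranges of the other fit were, with the block, -1.225 to 0.15 for Smarcal1 and -0.63 to 0.0073 for Smarcc1 with siBRM at 18 h, -0.19 to 2.06 for Dpf2 with siBRG1 at 18 h and -0.12 to 2.13 for Dpf2 against siBRM at 18 h. Without it they were -1.32 to 0.0018 for Chd6 and -1.29 to 0.028 for Ino80 with siBRM at 48 h, -1.79 to 0.13 for Baz2a with siBRG1 at 48 h, -0.079 to 1.24 for Chd6 against siBRM at 48 h and -0.14 to 1.65 for Ep400 in the interaction. With the block, Ep400 in the interaction was -0.039 without siBRM 48 h replicate 2, and Ino80 against siBRM at 48 h was -0.055 without siBRG1 48 h replicate 1.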
